A study of Mus musculus with 12 samples.

Results

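The genes described are 10 enzymes and regulators of fatty acid synthesis in mouse liver, chosen by gene symbol from a deposited table of 24537 genes, in which all 10 were found. They are the enzymes of the pathway and of its supply (Acly, Acaca, Acacb, Fasn, Me1 and Acss2), the regulatory proteins Thrsp, Srebf1 and Mlxipl, and the lipogenic target gene Pnpla3. Liver mRNA was sequenced from 12 male C57Bl/6J mice, 6 weeks old at the start and housed singly, in 4 groups of 3. Con mice ate an NIH41 diet ad libitum, and CR mice received 30% less of a fortified NIH41 diet, handed out daily at a fixed hour, with liver taken at day 25 or day 30 of the intervention. All mice received heavy water in the last days before collection, and as different mice were taken on each day, day and collection cannot be told apart. Calorie intake, diet formula and feeding pattern therefore cannot be told apart in these groups, and the hour of tissue collection is not given in the sources used here. The series asks how hepatic gene expression stands before and after a point at which hepatic protein synthesis slows under CR. For the Con mice of day 30 the labels do not tell which values belong to which mouse. These are therefore called mice a, b and c, while mice of the other groups carry the numbers of their labels.

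Fatty acid synthesis turns cytosolic acetyl-CoA into palmitate. ATP-citrate lyase and the acetyl-CoA synthetase ACSS2 make the acetyl-CoA, the acetyl-CoA carboxylases turn it into malonyl-CoA, and fatty acid synthase joins these units with NADPH, part of which comes from malic enzyme. In liver the pathway is known as the lipogenic program, high after a carbohydrate meal and low in fasting, and its genes are switched on by SREBP-1c (from Srebf1) under insulin and by ChREBP (from Mlxipl) under glucose.

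Levels are given in FPKM, a read count divided by the exon length and by the depth of the library, which allows levels of different genes to be set side by side. Differences are log2 fold changes of FPKM + 1 (CR minus Con, or day 30 minus day 25) from limma, a linear model with a spread shared across genes, with Benjamini-Hochberg adjustment over the 10593 genes that reached an FPKM of 1 in 3 or more libraries. The added 1 makes the fold change of a low gene smaller than the ratio of its FPKM. A gene is said to rise or fall at an adjusted p under 0.1, and to be called where the change was also at least 2-fold. Each library comes from a separate mouse, and in bulk liver a change in the number of hepatocytes and a change in RNA per hepatocyte cannot be told apart.

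The libraries held 15748946 to 23344706 reads (median 20296389), of which 78.1% to 84.3% lay on exons. The 8 hepatocyte markers summed to 41915 to 57416 FPKM in Con mice and 58948 to 70615 FPKM in CR mice, a sum that is mostly Alb. Marker by marker, CR mice lay above Con mice for 3 of the 8 and below for 1 at day 25, and above for 3 and below for 2 (Apoa1 and Apob) at day 30. The sums also parted for stellate cells (5 markers, higher in CR mice at both days), for Kupffer cells at day 25 (6 markers, 23.1 to 28.8 FPKM in CR and 37.9 to 62.7 FPKM in Con mice), and at day 30 for sinusoidal endothelial cells (6 markers, 52.7 to 59.5 against 39.8 to 41.7 FPKM), cholangiocytes (4 markers, 2.83 to 2.88 against 2.07 to 2.63 FPKM) and pancreatic acinar cells (5 markers, 5.84 to 7.78 against 8.34 to 9.49 FPKM). Of the stellate markers, CR mice lay above Con mice for 2 of 5 at either day. All 6 Kupffer markers lay below at day 25. At day 30 the CR mice lay above for 5 of 6 sinusoidal endothelial and 3 of 4 cholangiocyte markers. The acinar sum was almost all Cela1, and only 1 of its 5 markers lay below, while 4 overlapped. The part of these cell types in the results was not tested. Mouse c of the Con group at day 30 stood apart in the sum of the 7 adipocyte markers, which was 22.2 FPKM against 6.78 to 12 FPKM in the other 11 libraries. In it Adipoq was at 0.795 FPKM (0 to 0.07 in the others, 10 of them at 0) and Plin1 at 0.312 FPKM (all other 11 at 0). Retn, Cfd and Fabp4, the last at 14.5 FPKM (4.54 to 10.9 in the others), were also highest in mouse c. Cidec and Lep lay within the range of the others. Results that rest on the Con mice of day 30 are therefore also given without that mouse.

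Under CR, Thrsp and Acacb mRNA were higher than in Con mice at both time points, Acaca was higher at day 30, and the other 6 members that could be tested did not pass the test in the comparison of all mice at either day. Of the 10 members, 9 passed the filter on low values and Pnpla3 did not. At day 25, 1 of the 9 was called and it was higher (Thrsp), while 0.84% of the 10593 genes were called higher and 1.48% in either direction. Without the minimum fold change, 2 of 9 rose (Thrsp and Acacb) and none fell, beside 5.6% of all genes that rose and 14.9% that changed. Those 2 were also the members whose CR mice all lay above the Con mice, as in 10.2% of all genes. At day 30, 2 of the 9 were called, both higher (Thrsp and Acacb), beside 0.925% of all genes called higher and 2.21% in either direction. Without the minimum fold change 3 of 9 rose, with Acaca added, beside 8.33% of all genes that rose and 24.7% that changed. The CR mice all lay above the Con mice for the same 3 members and for 12.1% of all genes. Of all genes called at day 30, 41.9% were higher (98 higher and 136 lower), a share that became 52.0% when libraries were scaled by the median ratio. The median log2 fold change of the 9 members was 0.10 at day 25 and 0.44 at day 30, against -0.04 and -0.07 over all genes tested.

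**Figure D1:**
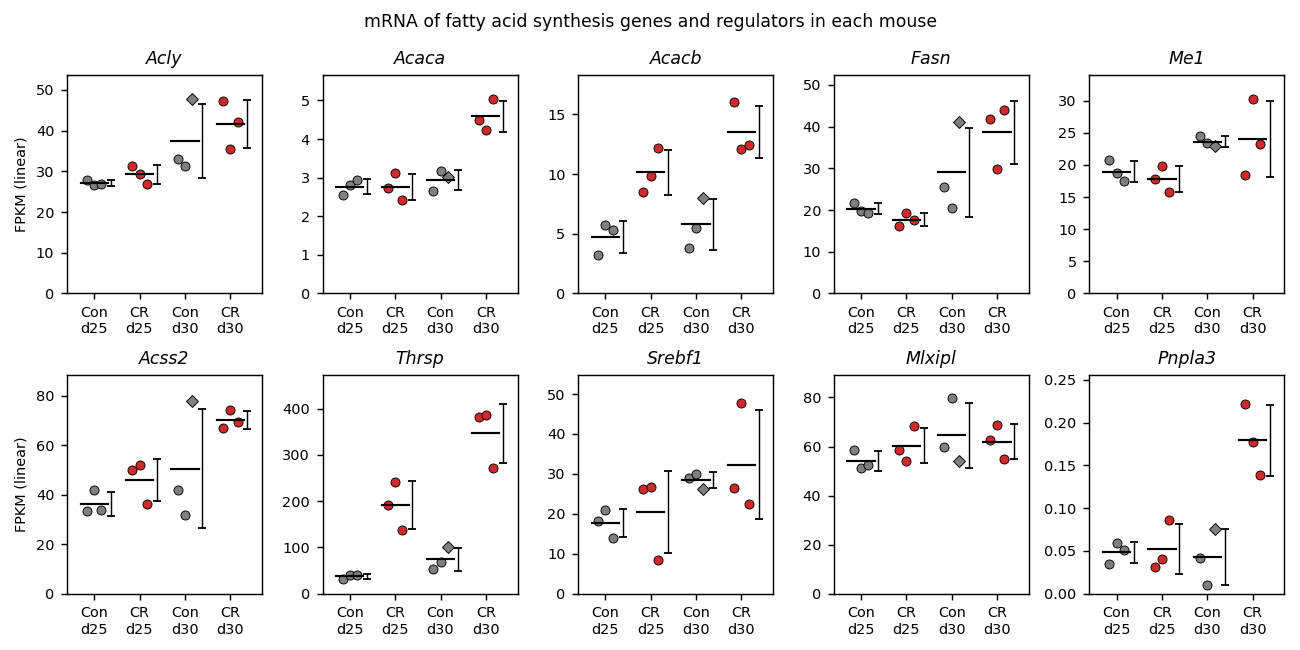
FPKM of each of the 10 members in every mouse, by group (grey, Con; red, CR; diamond, Con mouse c of day 30), with the group mean as a line and its SD as a bar beside it (n = 3); each panel has its own linear axis from 0. The CR mice lie above the Con mice of the same day in the panels of Thrsp and Acacb at both days, and in those of Acaca and Pnpla3 at day 30.

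In Con mice (n = 6 over both days), the highest mean level was that of Mlxipl, at 59.3 ± 10.6 FPKM (SD), followed by Thrsp at 55.8 ± 25.6 FPKM and Acss2 at 43.4 ± 17.4 FPKM. Mlxipl lay above Thrsp in 5 of 6 mice and Thrsp above Acss2 in 4 of 6, so these neighbours were not separated in every mouse. Acly followed at 32.2 ± 8.06 FPKM, and then Fasn, Srebf1 and Me1 at 24.6 ± 8.34, 23.0 ± 6.39 and 21.3 ± 2.80 FPKM, of which Fasn exceeded Srebf1 in 3 of 6 mice. The carboxylases were far lower, with Acacb at 5.26 ± 1.67 FPKM and Acaca at 2.86 ± 0.228 FPKM, and Acacb was above Acaca in 6 of 6 mice. Pnpla3 was last at 0.0455 ± 0.0225 FPKM. This order is that of the mean over both days, and within a day it differed for Thrsp, which exceeded Mlxipl at day 30 (74.1 and 64.5 FPKM), and for Me1, which exceeded Srebf1 at day 25 (19.0 and 17.7 FPKM). The order in CR mice differed at its head, where Thrsp stood first at 269 ± 100.0 FPKM, above Mlxipl (61.2 ± 6.42 FPKM) in 6 of 6 mice.

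The promoters of Thrsp and Acacb, which rose together at both days, and of Fasn, the member with the largest log2 fold change between the days in CR mice, are printed here as the 100 bases before the transcription start, read 5′ to 3′ on the strand of the gene, from RefSeq on GRCm38.p6 (the assembly called mm10). Capitals mark CCAAT boxes (CCAAT, or ATTGG where the box is on the opposite strand), the site bound by NF-Y, a factor that acts beside SREBP at lipogenic promoters.
Thrsp, chr7:97417551-97417650, minus strand: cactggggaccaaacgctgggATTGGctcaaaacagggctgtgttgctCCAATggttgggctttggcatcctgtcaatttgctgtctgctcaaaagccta
Acacb, chr5:114165418-114165517, plus strand: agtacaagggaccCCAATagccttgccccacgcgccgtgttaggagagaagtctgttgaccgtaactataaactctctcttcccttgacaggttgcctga
Fasn, chr11:120824548-120824647, minus strand: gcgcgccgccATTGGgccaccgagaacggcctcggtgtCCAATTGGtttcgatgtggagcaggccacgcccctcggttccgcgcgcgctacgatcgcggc
The window of Thrsp holds 2 boxes, at 79 and 52 bases before the start, that of Acacb 1 at 87 bases, and that of Fasn 3, of which those at 62 and 59 bases overlap in the run CCAATTGG.

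All 10 members matched a promoter of the RefSeq table, which covers 250 bases before to 50 after each start. Searched on both strands of these 300 bases, a CCAAT box was found for 9 of the 10 members, all but Acaca, and in 37.4% of the 32851 promoters of the table. In the last 100 bases before the start it was found for 6 of 10 members and in 18.9% of promoters. A GC box (GGGCGG), the site of Sp1, was found for 6 members (Acly, Acss2, Me1, Mlxipl, Pnpla3 and Srebf1) and in 35.7% of promoters. The E-box CACGTG, found in 7.15% of promoters, and the sterol regulatory element TCACNCCAC, where N is any base, found in 1.24%, each occurred for Mlxipl alone, at different starts of that gene. The window for Acaca lies before a start inside the gene and holds none of the 4 motifs. Motifs overlapping each other were counted separately. A member with several starts (Me1, Srebf1 and Mlxipl) was counted if any of its windows held the motif, while the percentages count each promoter of the table singly. The counts of members are therefore not on the same footing as these percentages.

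Thrsp encodes Spot 14, a small protein that is induced with lipogenesis and pairs with an activator of acetyl-CoA carboxylase, and it made the largest difference among the members at both days. The gene lies on chromosome 7 of mm10, from 97412933 to 97417550 on the minus strand. At day 25, Con mice 1 to 3 had 31.0, 40.9 and 41.0 FPKM of Thrsp and CR mice 1 to 3 had 193, 242 and 138 FPKM. All CR mice were above all Con mice, and the lowest CR value was far from the highest Con value. The mean was 37.6 ± 5.74 FPKM in Con mice and 191 ± 52.0 FPKM in CR mice (SD, n = 3), a 5.07-fold ratio. On the log2 scale Thrsp rose by 2.29 (SE 0.25, limma with Benjamini-Hochberg adjusted p = 0.000386). At day 30, Con mice a to c had 53.1, 68.0 and 101 FPKM and CR mice had 381, 387 and 273 FPKM. The groups again did not overlap, and both lay higher than at day 25. The means were 74.1 ± 24.6 and 347 ± 64.3 FPKM, a 4.68-fold ratio, and the log2 fold change was 2.24 (SE 0.25, limma adjusted p = 0.000174). The difference between the Thrsp effects of the 2 days was -0.04, with a 95% interval from -0.80 to 0.72.

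Acacb encodes acetyl-CoA carboxylase 2, the form at the mitochondrial surface whose malonyl-CoA restrains the entry of fatty acids into mitochondria, and it lies on chromosome 5 from 114165518 to 114250758, plus strand. At day 25 its level was 3.23, 5.70 and 5.31 FPKM in Con mice and 8.46, 9.85 and 12.2 FPKM in CR mice. Every CR mouse was above every Con mouse. The means of 4.75 ± 1.33 and 10.2 ± 1.88 FPKM (SD, n = 3) gave a ratio of 2.14, and Acacb rose by 0.97 on the log2 scale (SE 0.23, 95% interval 0.48 to 1.46, limma adjusted p = 0.0199). That is just under the 2-fold limit, which it passed with a pseudocount of 0.1 or 0.5, with median-ratio or TPM scaling or quantile normalization, by voom (limma's method for counts, run on reads recovered from the FPKM), and without Con mouse 2, Con mouse 3 or CR mouse 1. At day 30 Con mice had 3.83, 5.49 and 7.99 FPKM and CR mice 16.0, 12.1 and 12.4 FPKM. Again no Con mouse reached the lowest CR mouse. The means were 5.77 ± 2.10 and 13.5 ± 2.19 FPKM, a 2.34-fold ratio, with a rise of 1.14 on the log2 scale (SE 0.23, limma adjusted p = 0.00589), which was 0.92 and so under 2-fold without Con mouse a.

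Acaca encodes acetyl-CoA carboxylase 1, the cytosolic form that supplies malonyl-CoA to fatty acid synthase. The counted transcript covers 84195438 to 84401651 of chromosome 11, plus strand. Its level at day 25 was 2.55, 2.82 and 2.93 FPKM in Con mice and 2.73, 3.11 and 2.42 FPKM in CR mice. The groups overlapped and their means, 2.77 ± 0.196 and 2.75 ± 0.347 FPKM (SD, n = 3), gave a log2 fold change of -0.01 with a 95% interval from -0.22 to 0.20, whose sign changed under median-ratio scaling and quantile normalization. At day 30 Con mice had 2.66, 3.17 and 3.01 FPKM and CR mice 4.50, 4.25 and 5.03 FPKM. Here the CR mice stood above every other mouse of the study. The means were 2.95 ± 0.259 and 4.59 ± 0.398 FPKM, a ratio of 1.56, and Acaca rose by 0.50 on the log2 scale (SE 0.10, limma adjusted p = 0.00501). The ratio of Acacb to Acaca FPKM was 1.27 to 2.02 in Con mice and 3.10 to 5.03 in CR mice at day 25, and 1.44 to 2.65 and 2.48 to 3.56 at day 30, when the groups overlapped.

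Fasn encodes fatty acid synthase and lies on chromosome 11 from 120805958 to 120824547, minus strand. At day 25 Con mice had 21.7, 19.8 and 19.2 FPKM and CR mice had 16.1, 19.3 and 17.7 FPKM. The groups overlapped by a small margin, with CR mouse 2 above Con mouse 3. The means were 20.3 ± 1.31 and 17.7 ± 1.61 FPKM (SD, n = 3), and the log2 fold change of -0.19 had a 95% interval from -0.64 to 0.27 (limma adjusted p = 0.624). At day 30 Con mice had 25.6, 20.4 and 41.0 FPKM and CR mice 41.9, 29.9 and 44.0 FPKM. Mouse c of the Con group lay among the CR mice, and Con mice a and b lay below them. The means were 29.0 ± 10.7 and 38.6 ± 7.61 FPKM, and the log2 fold change was 0.44 (SE 0.21, limma adjusted p = 0.171). The ratio of Thrsp to Fasn FPKM was 1.42 to 2.13 in Con and 7.81 to 12.5 in CR mice at day 25, and 2.07 to 3.33 and 6.20 to 12.9 at day 30, without overlap on either day.

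Acly, which makes acetyl-CoA from citrate, lies on chromosome 11 from 100476352 to 100528000, minus strand. Its level was 27.9, 26.5 and 26.9 FPKM in Con mice and 31.4, 29.5 and 26.9 FPKM in CR mice at day 25, and 32.9, 31.4 and 47.8 FPKM in Con and 47.2, 35.5 and 42.0 FPKM in CR mice at day 30. The groups overlapped at both days, at day 30 through Con mouse c, which was the highest of the 6. The log2 fold changes were 0.10 (95% interval -0.22 to 0.43) and 0.17 (-0.16 to 0.49), neither passing the test. Acss2, which makes acetyl-CoA from acetate, lies on chromosome 2 from 155518043 to 155562743, plus strand. It was at 33.4, 41.7 and 33.7 FPKM in Con mice and 49.8, 52.0 and 36.3 FPKM in CR mice at day 25, and at 41.9, 31.9 and 77.8 FPKM in Con and 67.0, 74.3 and 69.4 FPKM in CR mice at day 30. CR mouse 3 fell among the Con mice at day 25, and Con mouse c was the highest of all at day 30. Its log2 fold change was 0.33 at day 25 (limma adjusted p = 0.460, or 0.0994 with the replicate number as a block, in a range of 0.0994 to 0.684 over the alternatives) and 0.57 at day 30 (SE 0.25, adjusted p = 0.144). Acss2 shares 9891 bases of its span with the antisense gene Acss2os, listed at 6.08 to 16.5 FPKM, and as no counting by strand is stated, reads of their shared exons cannot be told apart.

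Me1, the cytosolic malic enzyme, yields NADPH for the pathway and lies on chromosome 9 from 86581363 to 86695914, minus strand. Con mice had 20.7, 18.7 and 17.5 FPKM and CR mice 17.9, 19.8 and 15.8 FPKM at day 25, and 24.5, 23.4 and 23.0 FPKM stood against 18.5, 30.3 and 23.2 FPKM at day 30. The CR mice of day 30 spread to both sides of the Con mice. The log2 fold changes of -0.09 (95% interval -0.41 to 0.24) and -0.004 (-0.33 to 0.32) did not pass the test, and the sign at day 30 changed under median-ratio scaling and quantile normalization.

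Srebf1 encodes SREBP-1, the membrane-bound factor that is cut and sent to the nucleus to switch on lipogenic genes. The counted transcript covers 60199084 to 60220627 of chromosome 11, minus strand, and shares 112 bases with the opposite gene Rai1 (1.40 to 2.40 FPKM). As 1 transcript was counted, SREBP-1a and SREBP-1c were not separated. At day 25 Con mice had 18.3, 20.9 and 13.8 FPKM and CR mice 26.2, 26.7 and 8.52 FPKM. CR mice 1 and 2 were above all Con mice and CR mouse 3 was below all of them. The log2 fold change was 0.06 (SE 0.36, limma adjusted p = 0.939) with an interval from -0.73 to 0.85, and the fits that left out 1 mouse ran from -0.20 without CR mouse 2 to 0.57 without CR mouse 3 (adjusted p 0.238 to 0.997 over the alternatives), the sign also turning without CR mouse 1 or Con mouse 3. The same CR mouse was the lowest of its group for 6 of the 9 tested members (Acly, Acaca, Me1, Acss2, Thrsp and Srebf1) and the highest for Acacb and Mlxipl. At day 30 Con mice had 28.9, 30.1 and 26.1 FPKM and CR mice 26.4, 47.9 and 22.6 FPKM. CR mouse 2 stood far above the other 5 mice, which lay close together. The means of 28.4 ± 2.00 and 32.3 ± 13.6 FPKM (SD, n = 3) gave a log2 fold change of 0.11 with an interval from -0.68 to 0.90, and -0.21 without CR mouse 2.

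Mlxipl encodes ChREBP, the factor that carries the glucose signal to lipogenic and glycolytic genes. The counted transcript covers 135106891 to 135138382 of chromosome 5, plus strand. RefSeq lists 2 starts of the gene, and as 1 transcript was counted, transcripts from these starts were not separated. Con mice had 58.7, 51.1 and 52.4 FPKM and CR mice 58.6, 54.2 and 68.2 FPKM at day 25. At day 30 the levels were 59.9, 79.6 and 54.0 FPKM in Con and 62.5, 68.8 and 54.7 FPKM in CR mice. The groups overlapped on both days, and mice of either group differed from each other by more than the group means did. The log2 fold changes were 0.15 (95% interval -0.17 to 0.47) and -0.04 (-0.36 to 0.28), and the second changed sign under median-ratio scaling.

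Pnpla3, a lipid droplet acylhydrolase gene known as a target of SREBP-1c and ChREBP, lies on chromosome 15 from 84167816 to 84189521, plus strand, and was close to the limit of detection in every mouse. Con mice had 0.035, 0.059 and 0.051 FPKM and CR mice 0.031, 0.041 and 0.086 FPKM at day 25, from 3 to 8 reads a library. At day 30 Con mice had 0.042, 0.010 and 0.076 FPKM (4, 1 and 8 reads) and CR mice 0.222, 0.177 and 0.139 FPKM (24, 16 and 15 reads). The CR mice of day 30 were above all the other mice. Their mean was 0.179 ± 0.0415 FPKM against 0.0427 ± 0.0330 FPKM in Con mice (SD, n = 3), a 4.20-fold ratio, with a 2-sided exact permutation p = 0.1, the smallest that 3 against 3 mice can give. The ratio was 6.90 when Con mouse c was left out. At day 25 the ratio was 1.09 (exact permutation p = 0.9). No adjusted p is given because the gene did not pass the filter.

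Without Con mouse c, which held the highest level of its group for Acly, Acacb, Fasn, Acss2 and Thrsp and the lowest for Me1, Srebf1 and Mlxipl, 6 of the 9 members rose at day 30, beside 6.01% of all genes that rose and 18.1% that changed in that fit. Thrsp stood at 2.49 on the log2 scale, Acacb at 1.36 and Acaca at 0.52, and the median over the 9 members was 0.52 against -0.07 over all genes. Fasn then rose by 0.71 on the log2 scale (limma adjusted p = 0.0188), from a mean of 23.0 FPKM in Con mice a and b, a ratio of 1.68. Acss2 rose by 0.92 (adjusted p = 0.00718, ratio 1.90) and Acly by 0.35 (adjusted p = 0.0944, ratio 1.29). Over all alternatives to the fit with all mice, the adjusted p ran from 0.0127 to 0.498 for Fasn. It ran from 0.00398 to 0.444 for Acss2 and from 0.0886 to 0.854 for Acly. The CR mice lay above the 2 remaining Con mice for Acly, Acaca, Acacb, Fasn, Acss2, Thrsp and Pnpla3, and overlapped with them for Me1, Srebf1 and Mlxipl. Fasn also passed without CR mouse 2 (0.61, adjusted p = 0.083), and Acss2 under median-ratio scaling (0.65, adjusted p = 0.093). The part of the adipocyte marker transcripts in the values of mouse c was not tested.

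**Figure D2:**
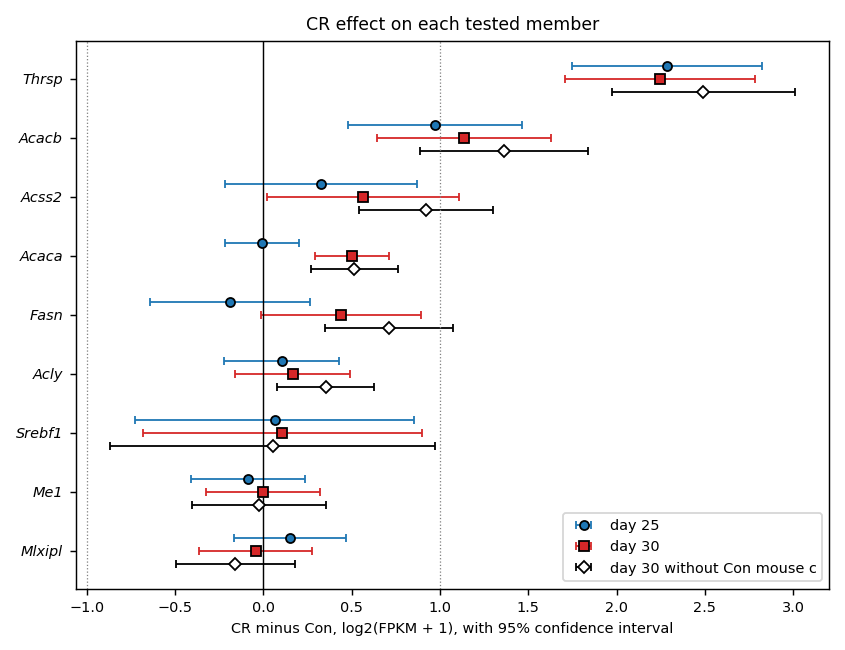
Log2 fold change of FPKM + 1 (CR minus Con) of the 9 tested members at day 25 (blue circles), at day 30 (red squares) and at day 30 without Con mouse c (white diamonds), with 95% confidence intervals from limma; dotted lines mark 2-fold. Thrsp lies near 2.3 and Acacb near 1 at both days, the interval of Acaca lies above 0 at day 30, and the points of Fasn, Acss2 and Acly move right when mouse c is left out; the signs of Acaca at day 25 and of Me1 and Mlxipl at day 30 changed with the scaling of the libraries.

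Over both days together, with day as a covariate, 2 of 9 members were called, both higher, beside 0.821% of all genes called higher and 1.66% in either direction. Thrsp rose by 2.27 (limma adjusted p = 3.14e-06) and Acacb by 1.05 (adjusted p = 0.000344). Without the minimum fold change 4 of 9 rose, beside 14.5% of all genes that rose and 40.6% that changed, with Acss2 at 0.45 (adjusted p = 0.0671, range over alternatives 0.00556 to 0.133) and Acaca at 0.25 (adjusted p = 0.0641, range 0.0257 to 0.138) added. Acss2 missed the threshold in 9 of 12 fits that left out a mouse, all but those without Con mouse 2 or CR mouse 3 of day 25 or Con mouse c, and Acaca missed it without any single mouse of day 30.

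Between the days, Fasn and Acaca mRNA rose in CR mice. There 1 of 9 members was called, Fasn, beside 0.0661% of all genes called higher and 0.142% in either direction. Without the minimum fold change 2 rose, Fasn and Acaca, beside 0.123% of all genes that rose and 0.321% that changed. Fasn went from a mean of 17.7 to 38.6 FPKM, a ratio of 2.18, with all CR mice of day 30 above all of day 25, and rose by 1.07 on the log2 scale (SE 0.21, limma adjusted p = 0.0857). This call held without Con mouse b or c or CR mouse 2 of day 30 and was lost without any of the other 9 mice (adjusted p 0.102 to 0.28, range over alternatives 0.0107 to 0.28). Acaca went from 2.75 to 4.59 FPKM and rose by 0.58 (SE 0.10, adjusted p = 0.0677, range 0.0312 to 0.258), a call lost without Con mouse 2, CR mouse 1 or CR mouse 3 of day 25 or CR mouse 1 or 3 of day 30. The mice of day 30 lay above those of day 25 for 5 of 9 members (Acly, Acaca, Fasn, Acss2 and Thrsp), beside 6.32% of all genes. The median log2 fold change of the 9 members was 0.58, with 9 of 9 above 0, against -0.01 and 48.4% of all genes.

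In Con mice the differences had the same sign and did not pass the test. The median over the 9 members was 0.38 with 9 of 9 above 0, against 0.02 and 54.3% of all genes, and mice of the 2 days did not overlap for 4 of 9 (Acly, Me1, Thrsp and Srebf1), beside 7.23% of all genes. Without Con mouse c the median was 0.24 with 8 of 9 above 0, Fasn stood at 0.17, Acss2 at 0.02 and Acacb at -0.01. Limma called 0 members and 0% of genes, with 765 genes (7.22%) and 2 members (Acly and Thrsp) at an unadjusted p under 0.05, and voom on recovered reads also called 0 genes. The largest of these differences was that of Thrsp, at 0.92 (SE 0.25, adjusted p = 0.453), beside 0.88 in CR mice (adjusted p = 0.247). Acly stood at 0.42 in Con and 0.49 in CR mice.

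For the difference between the CR effects of the 2 days, 0 members were called by limma and 0 by voom, beside 0.00944% of all genes, and 1 member, Acaca, had an unadjusted p under 0.05, as did 3.46% of all genes. Its CR effect was larger at day 30 by 0.51 (SE 0.14, 95% interval 0.21 to 0.81, adjusted p = 0.860), and that of Fasn by 0.63 (SE 0.30, interval -0.01 to 1.27, adjusted p near 1 at 0.9995). The intervals of the other 7 members contained 0. Without Con mouse c the difference was 0.90 for Fasn (interval 0.42 to 1.38, adjusted p = 0.840), 0.59 for Acss2 (0.09 to 1.10, adjusted p near 1 at 0.9996) and 0.52 for Acaca (0.19 to 0.86, adjusted p = 0.976). A different response of Acaca or Fasn at the 2 days was thus not established across all genes. The comparisons of days and of treatments share mice, so their values are not independent of each other.

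The counts of 8 lists of related genes stand beside 5.6% of all genes that rose and 14.9% that changed at day 25, and 8.33% and 24.7% at day 30. Of 23 genes for their partners and control, 1 rose and 2 fell at day 25, and 2 rose and 4 fell at day 30, with list medians of -0.03 and -0.05, shares near those of all genes. Lpin1, which encodes a phosphatidate phosphatase that also acts in the nucleus on SREBP, rose by 2.47 and 3.01 on the log2 scale (limma adjusted p = 0.00294 and 0.000488). Insig2, whose protein holds SREBP in the endoplasmic reticulum, was at a mean of 92.1 ± 1.60 FPKM in Con and 41.8 ± 18.9 FPKM in CR mice at day 25, and at 69.4 ± 11.5 and 27.4 ± 2.68 FPKM at day 30 (SD, n = 3), and fell by 1.21 and 1.30 (limma adjusted p = 0.0089 and 0.0035). Sp1, a factor of GC boxes, fell by 0.38 and 0.39. At day 30 the related factor Srebf2 fell by 0.45, the SREBP escort Scap fell by 0.37, and Mlxip, a relative of ChREBP, rose by 0.43, Scap and Mlxip being named after their values were seen. Srebf2 (-0.35, adjusted p = 0.114) and Scap (-0.37, adjusted p = 0.123) missed the threshold without Con mouse c. The ChREBP partner Mlx had log2 fold changes of -0.01 and 0.01, and the liver X receptor Nr1h3, an activator of Srebf1, 0.08 and -0.05, none past the test.

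Among 11 tested genes of AMPK and other control of the enzymes at the protein level, 1 rose at day 25 (Prkag2, a regulatory subunit of AMPK, by 0.51 with limma adjusted p = 0.0296) and 1 fell at day 30 (Trib3, a pseudokinase that favours breakdown of acetyl-CoA carboxylase, by 0.80 with adjusted p = 0.0694, and -0.64 with adjusted p = 0.206 without Con mouse c). The medians were -0.09 and -0.10.

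Of 17 tested genes for the supply of carbon and NADPH, 1 rose at day 25 (Tkt, transketolase, by 0.37) and 6 rose at day 30, none fell, and the medians were 0.13 and 0.18. The share that rose was that of all genes at day 25 and above it at day 30. The largest at day 30 were Khk, ketohexokinase, which went from 127 ± 19.99 to 223 ± 33.2 FPKM (SD, n = 3) and rose by 0.80 (limma adjusted p = 0.0054), the glucose transporter Slc2a2, which rose by 0.63, and the cytosolic malate dehydrogenase Mdh1, which rose by 0.46. Of 11 tested ChREBP targets outside fatty acid synthesis, 1 fell at day 25, and 2 rose and 1 fell at day 30. Gpd1, glycerol-3-phosphate dehydrogenase, fell by 1.24 and 1.27 (adjusted p = 0.0040 and 0.0020), while Khk and the pyruvate kinase gene Pklr (0.43) rose at day 30, genes that the supply list also holds.

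Of 14 tested genes of elongation, desaturation and esterification, 5 rose and 1 fell at day 25, and 6 rose and 2 fell at day 30, with medians of 0.01 and 0.32. Elovl6, the elongase that takes palmitate to stearate, was at 7.07, 5.99 and 6.79 FPKM in Con and 7.12, 6.89 and 6.66 FPKM in CR mice at day 25, and at 7.11, 8.72 and 7.76 FPKM in Con and 14.9, 16.2 and 15.9 FPKM in CR mice at day 30. The CR mice of day 30 stood apart from all others, as for Acaca. Elovl6 rose by 0.92 at day 30 (SE 0.09, limma adjusted p = 8.64e-05) and was at 0.05 at day 25. Lpin2, a second phosphatidate phosphatase, rose by 0.83 and 0.92, and Elovl5, an elongase of polyunsaturated fatty acids, fell by 1.00 at day 25. The desaturases Fads1 (0.59 and 0.49) and Fads2 (0.83 and 0.61) and the acyltransferase Dgat2 (0.72 and 0.47) rose at both days, while the acyl-CoA synthetase Acsl1 fell by 0.91 and the acyltransferase Agpat2 by 0.42 at day 30 (limma adjusted p = 0.0210 and 0.0423), these 5 being named after their values were seen. Without Con mouse c, Fads2 (0.45, adjusted p = 0.179) and Dgat2 (0.47, adjusted p = 0.117) missed the threshold at day 30, which left 4 that rose and 2 that fell. The separate mitochondrial synthesis of fatty acids, which feeds lipoic acid, was represented by 8 tested genes, of which 1 fell at day 25, and 1 rose and 2 fell at day 30. There Oxsm, the mitochondrial ketoacyl synthase, fell by 0.31 and 0.61, Lias, lipoic acid synthetase, fell by 0.30 at day 30, and Cbr4 rose by 0.27 at day 30, a call lost without Con mouse c (0.28, adjusted p = 0.115).

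Genes known to be induced in fasted liver were measured as a sign of the feeding state. Of 12 tested, 3 rose and 1 fell at day 25, and 5 rose and 1 fell at day 30, with medians of 0.19 and 0.41. Igfbp1, an insulin-repressed binding protein, had 14.4, 40.0 and 42.1 FPKM in Con and 56.7, 67.6 and 175 FPKM in CR mice at day 25, and 10.3, 6.88 and 15.7 FPKM in Con and 103, 36.2 and 67.6 FPKM in CR mice at day 30. It rose by 1.56 and 2.49 (limma adjusted p = 0.0741 and 0.0063), and no Con mouse reached a CR mouse of its day. The coactivator Ppargc1a rose by 0.74 and 1.10, and Pdk4, which shuts pyruvate dehydrogenase, rose by 1.03 at day 30. Angptl4, an inhibitor of lipoprotein lipase, rose by 0.57 at day 25 and 0.67 at day 30. Of 11 tested clock genes, 3 rose and 2 fell at either day. The repressor Nr1d1 fell by 2.37 and 2.28, while Cry1 rose by 1.47 and 1.63 and Per2 by 1.35 and 0.97. Their part in the changes of Thrsp, Acacb and Acaca was not tested. Without Con mouse c, Tm6sf2 of the ChREBP targets (0.70, adjusted p = 0.0937) and the clock gene Ciart (1.30, adjusted p = 0.0286), both named after their values were seen, also rose at day 30, and the counts of the supply and fasting lists were the same.

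**Figure D3:**
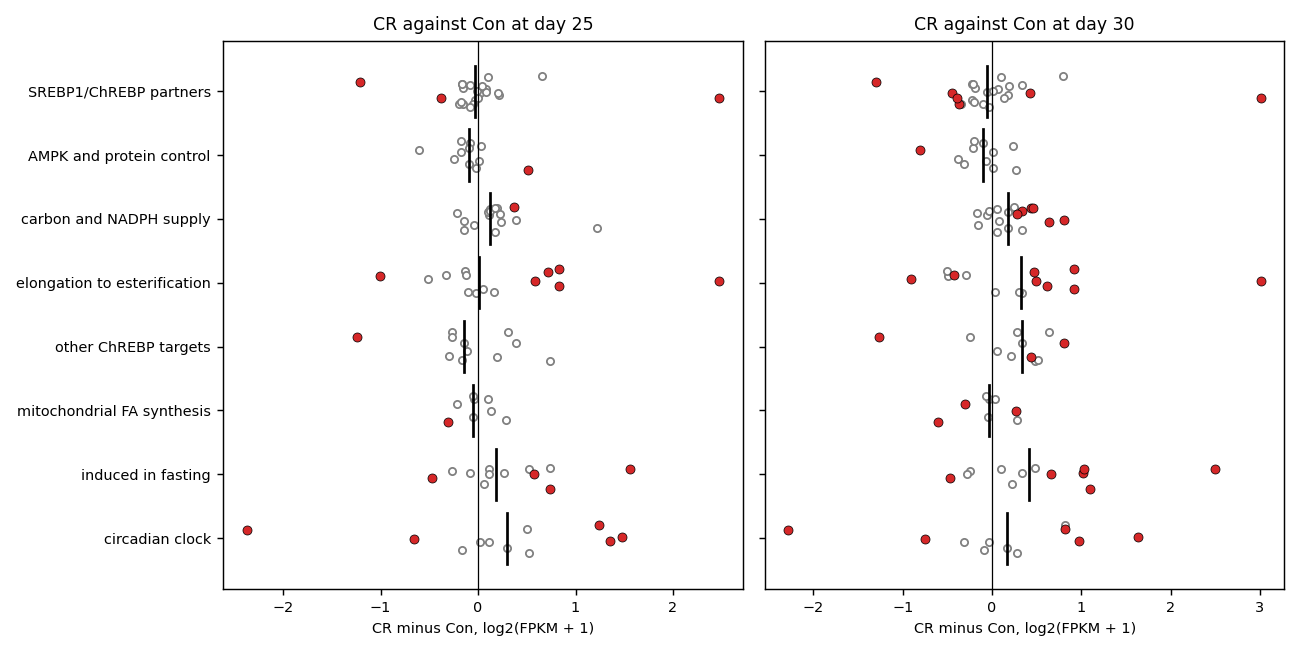
Log2 fold change of FPKM + 1 (CR minus Con) of each tested gene of 8 lists at day 25 (left) and day 30 (right); filled red points have an adjusted p under 0.1, open points do not, the black bar is the list median, and vertical scatter is for display. The points farthest to the right are Lpin1, on the first and the fourth line, and the point farthest to the left is Nr1d1, on the last line.

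The genes whose pattern over the 12 libraries was most like that of a member were found by the root mean square difference of log2(FPKM + 1), each gene centred on its own mean, with the other members left out. For Thrsp these were Cyp2a4 (0.510), Cyp2c40 (0.516) and Orm2 (0.519), all of multigene families among which reads may be shared, so their values are uncertain. The SD of Thrsp itself was 1.31 on that scale. For Fasn (SD 0.501) they were the aldehyde dehydrogenase genes Aldh1a7 (0.253) and Aldh1b1 (0.281) and the chemokine gene Ccl9 (0.256). All 3 were, like Fasn, highest among Con mice in mouse c. For Srebf1 (SD 0.588) they were 1810008I18Rik (0.193), the steroid dehydrogenase gene Hsd3b3 (0.280) and Syt1 (0.327), and the first 2 shared its minimum in CR mouse 3 of day 25. For Mlxipl (SD 0.187) they were C1galt1c1 (0.0728), Ogt (0.0852), whose enzyme adds O-GlcNAc to proteins, and Srsf6 (0.0951), at distances that were less than the spread of Mlxipl between mice.

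**Figure D4:**
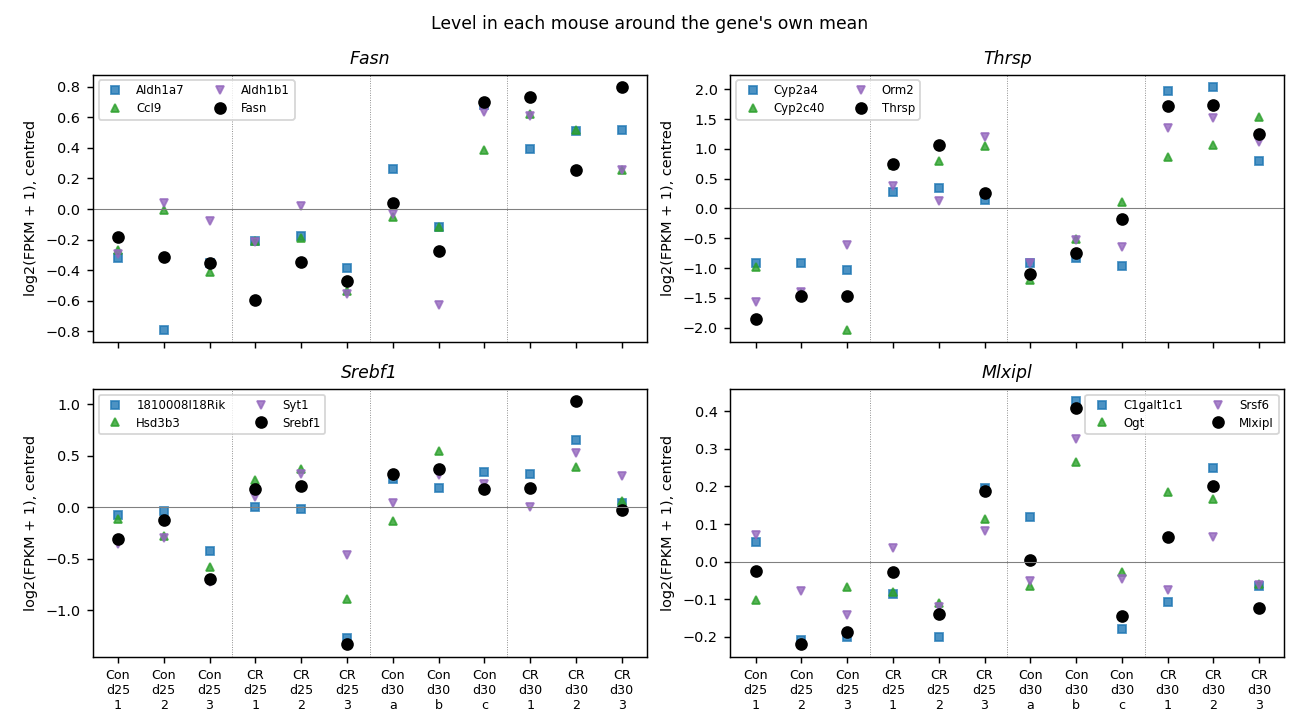
Log2(FPKM + 1) of Fasn, Thrsp, Srebf1 and Mlxipl (black circles) and of the 3 genes most like each of them (coloured marks) in the 12 mice, each centred on its own mean; dotted lines part the groups. Thrsp separates CR from Con mice within both days, Srebf1 is lowest in CR mouse 3 of day 25, and the range of Mlxipl is the narrowest of the 4.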

How the data were processed

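Liver mRNA of 12 mice was sequenced, in 4 groups of 3. The authors made reads with CASAVA 1.8.2, checked them with FastQC and mapped them to mm10 with BWA. The deposited values are FPKM, which the authors made with HOMER per the file headers from reads on exons, keeping 1 RefSeq transcript per gene and scaling by length and library size alone. The authors' own tests used DESeq2 and are not in the table.

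Depth was recovered from the steps of low FPKM (100% of 1500 values per library whole within 0.1 read). As FPKM are not counts, log2(FPKM + 1) was fitted with limma 3.58.1 (R 4.3.3, trended empirical Bayes, 2-sided) in 1 model of the 4 groups, or of treatment and day, for genes that reached an FPKM of 1 in 3 or more libraries. The precision of low genes is limited by 15748946 to 23344706 reads per library. On simulated data with 10593 genes, 194 of 200 changed genes were recovered at day 25, 198 at day 30 and 198 over both days. The other genes called there numbered 0, 3 and 1. Recovery of changes as small as those of Acacb at either day, or of Acaca, Fasn and Acss2 at day 30, was not tested. Tables and figures used Python 3.11.15, pandas 2.3.3, numpy 2.4.6, scipy 1.17.1 and matplotlib 3.10.9.

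The members and gene lists were chosen with earlier results of these data known. All members were named, with up to 3 genes per list and day with the largest change at an adjusted p under 0.1, and the 3 genes nearest in pattern to Fasn, Thrsp, Srebf1 and Mlxipl. Lists were written from general knowledge. Same-numbered Con and CR mice of day 25 deviated together (r 0.106 to 0.368 in 3 pairs, -0.287 to 0.0134 in the other 6). The numbers come from the sample labels, which do not state a pairing of mice. Those of the Con mice of day 30 could not be matched to the deposited values. Alternatives covered the pseudocount, filter, scaling, moderation, groups, thresholds, replicate block and leaving out each mouse, and voom on recovered reads without Con mouse c was added after seeing the data. Protein sequences were not analysed here, and some genes of the lists are not reported here by name.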

Additional observations from a re-analysis of the deposited data

Results flagged for a closer look

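No member was set apart by a difference between the CR effects of the 2 days. Outside the members, Snord55, a small nucleolar RNA gene named after its values were seen, was the gene for which this difference passed the test, at -1.68 on the log2 scale (SE 0.23, limma adjusted p = 0.0833). It was listed at 0 FPKM in all Con mice of day 25 and at 1.23, 1.65 and 1.29 FPKM in the CR mice, and at 0.634, 1.83 and 1.15 FPKM in Con and 0.557, 0.668 and 0.556 FPKM in CR mice of day 30. With fits on a broader or narrower set of genes, quantile normalization or voom, 0 genes passed. At such levels, near the filter of an FPKM of 1, the precision is limited by the depth of the libraries. Without CR mouse 3 of day 25, 4 genes were called lower for this difference. Without Con mouse a or without Con mouse b of day 30, 1 gene was called lower. In all other fits that left out 1 mouse Snord55 was not called. Of these, the fits without CR mouse 2 or without CR mouse 3 of day 30 each called 1 gene higher.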

How the results depend on the processing

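The depth of the libraries limits low genes, of which Pnpla3, at 1 to 24 reads a library, could not be tested across genes. Of 651 values of members under alternatives, 587 kept their direction and side of the threshold, 37 no longer passed it, 10 newly passed it and 17 changed sign. They cover all 9 tested members for CR against Con at each day, many of which did not pass in the main fit. Over both days they cover only Thrsp, Acacb, Acaca and Acss2. For the difference between the days' CR effects they cover Fasn and Acaca, and between days in CR mice Fasn, Acaca, Thrsp and Acly. Thrsp kept its call in the comparisons of CR with Con at both days under each alternative.

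With a pseudocount of 0.1, 276 genes were called at day 25, 385 at day 30, 315 over both days, 2 for the difference between the days' CR effects and 1 between days in Con mice, where pseudocount 0.5 and TPM scaling also gave 1. Voom on recovered reads called 302, 422 and 342 genes in the first 3 comparisons, and 306, 457 and 345 without Con mouse c, an alternative chosen after seeing the data. With no minimum fold change the counts were 1582, 2619 and 4304, and 34 between days in CR mice, where no filter gave 3 genes, an FPKM of 1 in all libraries 9, and an adjusted p under 0.05 gave 5. No gene passed for the difference between the days (0) without a filter, with the filter on all libraries, with quantile normalization, at an adjusted p under 0.05, or by voom with or without mouse c. The cause was not tested.

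Of the members, 2 were called at day 25 with a pseudocount of 0.1 or 0.5, median-ratio or TPM scaling, quantile normalization, no minimum fold change, or voom with or without mouse c. Over both days 4 were called with no minimum fold change. Between days in CR mice 2 were called with no minimum fold change and 0 with a pseudocount of 0.1, no filter, quantile normalization or an adjusted p under 0.05. Acaca at day 25 turned to 0.0384 with median-ratio scaling and 0.0623 with quantile normalization, Me1 at day 30 to 0.075 and 0.046, and Mlxipl at day 30 to 0.0385 with median-ratio scaling.

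Leaving out 1 mouse in turn gave 137 to 170 genes at day 25, 202 to 286 at day 30, 162 to 188 over both days, 0 to 4 for the difference between the days, 2 to 18 between days in CR mice and 0 to 10 in Con mice. Members called ranged from 1 to 2 in each comparison of CR with Con, from 0 to 1 between days in CR mice, and were 0 in the other comparisons. Acaca at day 25 then ranged from -0.0749 to 0.058, Me1 at day 30 from -0.178 to 0.161, Mlxipl at day 30 from -0.159 to 0.117, and Srebf1 from -0.198 to 0.572 at day 25 and from -0.207 to 0.319 at day 30. Acaca changed sign without Con mouse 2, Con mouse 3 or CR mouse 3 of day 25, Srebf1 at day 25 without Con mouse 3, CR mouse 1 or CR mouse 2, and Srebf1 at day 30 without CR mouse 2.

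The replicate block at day 25 gave 171 genes called, against 157 without it, and 1 member called, as without it. It took Acss2, at 0.33, under a limma adjusted p of 0.1 (0.0994). Between days in CR mice, same-numbered mice did not all deviate together (r from -0.382 to 0.299). There the block gave 26 genes and 1 member called, with Acaca at a limma adjusted p of 0.258 and Thrsp at 0.0935. For day 30 and for both days no paired analysis was possible because the Con mice of day 30 could not be told apart.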

Other observations

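CR mouse 3 of day 25, which had the lowest Srebf1 of the 12 mice, also differed from CR mice 1 and 2 in genes of the fed and fasted state, which were singled out after their values were seen. The desaturase gene Scd1 was at 108 FPKM in it and at 400.3 and 276 FPKM in the other two. Insig2 stood at 62.8 FPKM against 36.2 and 26.4 FPKM, Igfbp1 at 175 FPKM against 56.7 and 67.6 FPKM, and Pdk4 at 4.18 FPKM against 1.89 and 1.03 FPKM. Thrsp, at 138 FPKM, was lowest of the CR mice of that day in this mouse and still above every Con mouse.

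Lep, the leptin gene, was at or under 0.017 FPKM in all 12 libraries.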
